A study of Mus musculus with 19 samples.

Results

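The 10 genes described here mark T cells and natural killer (NK) cells and were followed in RNA-seq libraries of microglia-enriched brain homogenate from 19 mice. They are Cd3d, Cd3e and Cd3g, Cd4, Cd8a, Nkg7, Gzma, Gzmb, Prf1 and Klrd1. They were taken by gene identifier from a table of 49671 mouse genes, of which 23973 reached 10 in 3 or more libraries and were tested. All 10 were found and all 10 were tested. The mice form 4 groups on the B6D2F1/J background. HEM mice, which overexpress the full-length wild-type form of human α-synuclein from a transgene on the X chromosome driven by the murine Thy-1 promoter, were sampled at 13 months (n = 8) and at 3 months (n = 4). WT mice of that background, without the transgene, were the controls at 13 months (n = 4) and at 3 months (n = 3). The Thy-1 promoter is known for its activity in neurons, and the Thy1 protein is also carried by mouse T cells. Microglia were enriched from whole brain, so a library can hold blood and border cells besides microglia.

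T cells recognise antigen through a receptor whose variable chains signal through the invariant CD3 chains, while the coreceptors CD4 and CD8 bind the peptide-presenting molecules and define the helper and cytotoxic lineages. Cytotoxic T cells and NK cells kill by releasing granules in which perforin opens the target membrane for granzymes. NK cells, and T cells after activation, also carry lectin-like receptors encoded together on chromosome 6 in the NK gene complex. In the healthy brain such cells are few and lie mostly in vessels, meninges and choroid plexus.

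The libraries held 63.3 to 95.8 M (mega) reads in genes in 13-month HEM mice and 93.2 to 124.5 M in 13-month WT mice. At 3 months they held 74.7 to 112.9 M in HEM mice and 83.0 to 106.8 M in WT mice. The 10 genes rested on 116 to 16284 reads in a library. Values are normalized counts, the reads of a gene divided by 1 size factor per library by the authors. The HEM libraries at 13 months were the shallowest group, a difference that the size factors scale for and whose part in the results was not tested. Transcript levels of microglia genes were far above those of the 10 genes, with a median over all libraries of 27777 normalized counts per kilobase of exon for P2ry12 and 30433 for Tmem119, both markers of resident microglia. Replicates of a group correlated at 0.942 to 0.981 across tested genes on the log2(value + 1) scale. Nothing states more of the replicates than their animal numbers, so p-values measure the spread between these samples. A pair of libraries, 13-month WT replicate 6 and 3-month HEM replicate 7, stood apart by very low values of 4 NK receptor genes described with Klrd1 at the end.

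In the mouse genome (build mm10) Cd3g at chr9:44969572-44980431, Cd3d at chr9:44981786-44987339 and Cd3e at chr9:44998740-45009627 are neighbours that span 40.1 kb, and the starts of Cd3d and Cd3g lie 1355 bases apart on opposite strands. Cd8a (chr6:71373427-71379173), Cd4 (chr6:124864692-124888221) and Klrd1 (chr6:129591782-129598775) share a chromosome. Nkg7 lies at chr7:43437073-43438249, Prf1 at chr10:61297833-61304680, Gzma at chr13:113093825-113100981 and Gzmb at chr14:56258838-56262260. The exons of 9 of the 10 genes overlap no exon of another annotated gene, and 3.31% of the exon bases of Cd3e overlap the antisense gene Gm48719. Because the levels of the 10 genes followed one another across libraries to different degrees, the 250 bases before the RefSeq start of the 4 granule genes and, for contrast, of Cd3d are shown, from RefSeq on build GRCm38.p6. The RefSeq table gave a promoter for 8 of the 10 genes, and Cd4 and Klrd1 had none there. Each sequence runs 5′ to 3′ on the strand of its gene, and capitals mark matches on either strand to the RUNX motif TGTGGT, the ETS motif AGGAAG or the T-box motif AGGTGTGA.
Nkg7 promoter (chr7:43436888-43437137, plus strand): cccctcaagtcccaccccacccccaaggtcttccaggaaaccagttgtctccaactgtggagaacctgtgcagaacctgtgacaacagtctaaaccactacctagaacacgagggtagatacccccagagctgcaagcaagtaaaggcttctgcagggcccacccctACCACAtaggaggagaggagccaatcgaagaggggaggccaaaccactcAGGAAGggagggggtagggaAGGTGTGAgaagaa
Prf1 promoter (chr10:61297586-61297835, plus strand): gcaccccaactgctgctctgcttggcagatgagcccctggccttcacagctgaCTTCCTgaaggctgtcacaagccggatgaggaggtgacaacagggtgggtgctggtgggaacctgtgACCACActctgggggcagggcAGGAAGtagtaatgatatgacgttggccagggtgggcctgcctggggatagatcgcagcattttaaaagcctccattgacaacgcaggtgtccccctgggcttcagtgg
Gzma promoter (chr13:113100982-113101231, minus strand): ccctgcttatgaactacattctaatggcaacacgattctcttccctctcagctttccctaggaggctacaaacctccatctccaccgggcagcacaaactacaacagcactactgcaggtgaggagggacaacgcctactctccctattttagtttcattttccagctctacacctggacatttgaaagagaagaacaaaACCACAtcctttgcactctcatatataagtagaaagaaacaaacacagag
Gzmb promoter (chr14:56262335-56262584, minus strand): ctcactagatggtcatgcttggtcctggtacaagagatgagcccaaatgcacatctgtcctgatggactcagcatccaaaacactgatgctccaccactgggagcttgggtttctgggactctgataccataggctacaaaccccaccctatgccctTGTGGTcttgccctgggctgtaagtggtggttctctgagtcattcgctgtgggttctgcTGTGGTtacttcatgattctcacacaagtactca
Cd3d promoter (chr9:44981536-44981785, plus strand): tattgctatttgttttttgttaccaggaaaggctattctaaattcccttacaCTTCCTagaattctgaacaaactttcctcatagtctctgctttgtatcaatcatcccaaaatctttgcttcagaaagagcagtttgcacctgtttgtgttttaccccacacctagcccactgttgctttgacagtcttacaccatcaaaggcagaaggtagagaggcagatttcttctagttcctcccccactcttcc
The RUNX letters stood in 4 of the 8 promoters, those of the 4 granule genes, and in 14.0% of 32851 promoters of the same length. The ETS letters stood in 4 of the 8, those of Nkg7, Prf1, Cd3d and Cd3e, and in 29.5% of all promoters. The T-box letters stood in Nkg7 alone among the 8 and in 1.12% of all promoters, and the CRE motif TGACGTCA stood in 0 of the 8 and in 1.55% of all. The 3 motifs marked here do not overlap in these windows. A match of letters is a description of the sequence.

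At 13 months 6 of the 10 genes were higher in HEM than in WT mice, and 0 were lower. Those that passed an adjusted p of 0.05 (limma, Benjamini-Hochberg over all tested genes) were Nkg7, Gzma, Klrd1, Cd3e, Cd3g and Cd4. Nkg7 and Gzma belong to the killing machinery, Klrd1 to the lectin-like receptors and Cd3e and Cd3g to the T cell receptor, and Cd4 is a coreceptor. Cd3d, Prf1, Gzmb and Cd8a did not pass. Of all 23973 tested genes 12.2% passed in either direction, 4.87% as higher and 7.3% as lower. The log2 fold changes of the 10 genes ran over 1.10 to 1.54 with a median of 1.31, against a median of 0.03 over all tested genes. All 10 had an unadjusted p under 0.05, against 24.9% of all tested genes. In bulk tissue, more cells of a type and more RNA per cell cannot be told apart.

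The count of 6 changed when single libraries were left out and when a level of other blood cells was added to the model. It was 2 without both libraries low in NK receptor genes, 2 without 13-month WT replicate 6 or replicate 9, 3 without 13-month WT replicate 8 or without 13-month HEM replicate 1, 3 or 12, and 8 without 13-month WT replicate 7 or 3-month HEM replicate 3. A covariate was made from the neutrophil and erythroid markers, as their mean log2(value + 1) in each library. With this neutrophil and erythroid level in the model 0 of the 10 passed, 7 had an unadjusted p under 0.05, and 0 of all tested genes passed. The log2 fold changes of Cd3d, Cd3e, Cd3g, Cd4 and Cd8a were then larger, and those of Nkg7, Gzma and Prf1 smaller. Standard errors were larger too, and the values are given below. The part of other blood cells in the calls was not tested.

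**Figure D1:**
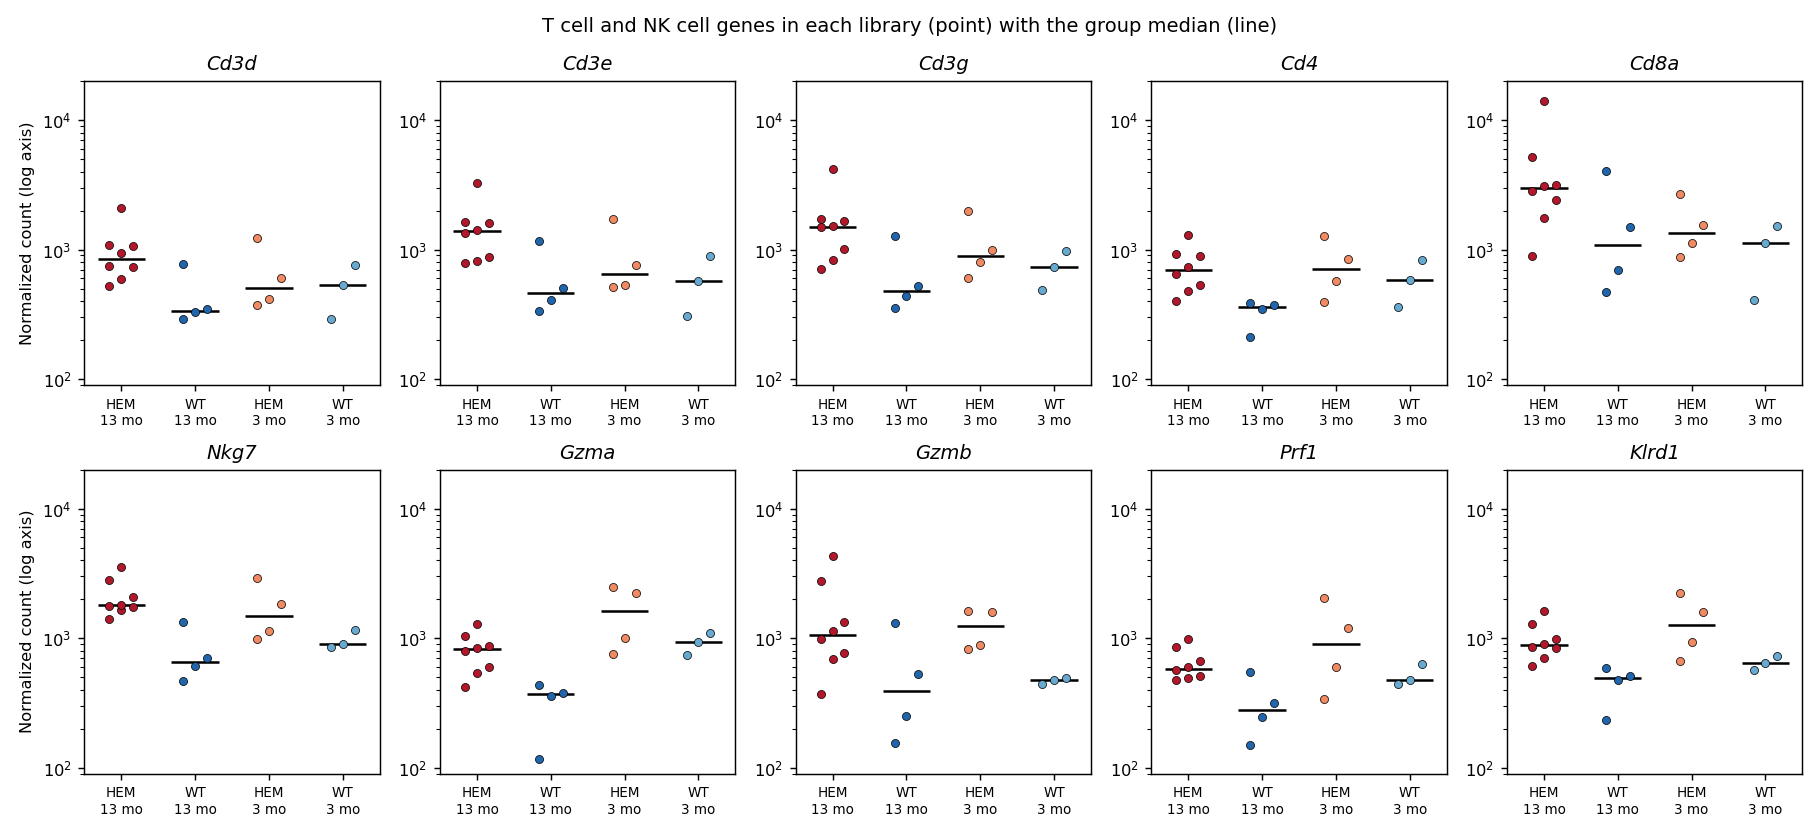
Normalized counts (log axis) of the 10 T and NK cell genes, with each point 1 library and each line a group median, for HEM and WT mice at 13 months and HEM and WT mice at 3 months. The 13-month WT median is the lowest of the 4 in all 10 genes, with replicate 7 above the other 3 in 9 of 10 genes, and 1 HEM library at each age, replicate 3, stands highest for 7 genes at 13 months and 9 genes at 3 months.

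Cd3e encodes the epsilon chain of CD3, the signalling part that every T cell receptor needs at the cell surface. It had 785 to 3237 normalized counts in 13-month HEM mice, with a median of 1384, against 337, 1167, 507 and 408 in 13-month WT mice. All 8 HEM libraries lay above the WT median, and the groups overlapped through WT replicate 7 alone. Its log2 fold change of 1.30 ± 0.41 (SE) passed by a small margin (limma adjusted p = 0.0464). Cd3g, the gamma chain, had 705 to 4180 in HEM mice with a median of 1502, against 355, 1269, 523 and 441 in WT mice, again with the groups overlapping through WT replicate 7. Its log2 fold change was 1.31 ± 0.42 (adjusted p = 0.0470 by limma). Cd3d, the delta chain, had 519 to 2107 in HEM mice with a median of 840.1, against 327, 769, 350 and 291 in WT mice, and its log2 fold change of 1.15 ± 0.38 did not pass (limma adjusted p = 0.0556). With 1 library left out at a time, the call of Cd3e was lost in 12 of 19 fits and that of Cd3g in 13.

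At 3 months the CD3 genes had higher and lower libraries in both genotypes. Cd3e had 517, 1718, 534 and 762 in HEM mice, against 886, 306 and 572 in WT mice. Only HEM replicate 3 exceeded the range of the WT libraries, and the log2 fold change was 0.53 ± 0.52 (limma adjusted p = 1.0). Cd3g differed by 0.49 ± 0.52 and Cd3d by 0.25 ± 0.47 on the same scale. The difference of Cd3d was -0.11 without 3-month HEM replicate 3 and -0.12 without 3-month WT replicate 3. Between ages, Cd3e differed by 0.77 ± 0.41 in HEM mice and by -0.01 ± 0.52 in WT mice, and neither passed (adjusted p = 0.367 and 0.997, limma).

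Among the members the 3 CD3 chains varied most alike over the 19 libraries, with Pearson's r of 0.973 for Cd3d and Cd3e, 0.971 for Cd3e and Cd3g and 0.967 for Cd3d and Cd3g on the log2(value + 1) scale. Normalized for exon length, the order of the 3 was the same in most libraries. Cd3d averaged 398 normalized counts per kilobase over all libraries, Cd3g 358 and Cd3e 251, with Cd3d above Cd3g in 16 of 19 libraries and Cd3g above Cd3e in all 19. The per-kilobase ratio of Cd3d to Cd3e had a median of 1.47 in 13-month HEM mice, 1.58 in 13-month WT mice, 1.68 in 3-month HEM mice and 2.09 in 3-month WT mice.

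Cd4 marks helper T cells, and in mice some dendritic cells and macrophages carry it too. It had 399 to 1288 normalized counts in 13-month HEM mice, with a median of 691, against 347, 386, 212 and 375 in 13-month WT mice. Each HEM library lay above each WT library, a separation that 2.69% of all tested genes showed in that direction. Its log2 fold change was 1.10 ± 0.33 (limma adjusted p = 0.0341), and the call was lost in 7 of the 19 fits without 1 library. At 3 months Cd4 had 569, 1281, 391 and 845 in HEM mice, against 827, 360 and 585 in WT mice, and the difference was 0.33 ± 0.41. Of the HEM libraries 2 lay above the WT range and 2 within it. Between ages Cd4 differed by -0.02 ± 0.33 in HEM mice and by -0.79 ± 0.41 in WT mice (limma adjusted p = 0.986 and 0.367).

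Cd8a encodes the alpha chain of CD8, the coreceptor of cytotoxic T cells, which some dendritic cells of the mouse also carry. It had the widest range of the 10 genes in 13-month HEM mice, from 891 up to 14111 normalized counts with a median of 2961, against 472, 4072, 1488 and 691 in 13-month WT mice. HEM replicate 3 held the highest value of all 19 libraries, and WT replicate 7 stood above 6 of the 8 HEM libraries. A log2 fold change of 1.37 ± 0.61 did not pass (limma adjusted p = 0.169). At 3 months Cd8a had 872, 2695, 1131 and 1537 in HEM mice, against 1124, 407 and 1531 in WT mice, with a log2 fold change of 0.68 ± 0.76. Its difference between ages was 1.11 ± 0.61 in HEM mice and 0.42 ± 0.76 in WT mice (adjusted p = 0.381 and 0.855 by limma).

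The ratio of Cd8a to Cd4 per kilobase of exon had a median of 4.85 in 13-month HEM mice (1.84 to 16.9) and 3.98 in 13-month WT mice (1.51 to 11.7). At 3 months it had a median of 2.17 in HEM mice (1.70 to 3.21) and 1.51 in WT mice (1.26 to 2.90). Cd8a exceeded Cd4 per kilobase in all 19 libraries, and the ranges of the 4 groups overlapped. These ratios are a description and were not tested.

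Nkg7 encodes a membrane protein of cytotoxic granules found in NK cells and killer T cells. It had the smallest adjusted p of the 10 genes at 13 months, with 1401 to 3577 normalized counts in HEM mice and a median of 1796, against 607, 1344, 700 and 467 in WT mice. Each HEM library lay above each WT library, as in 2.69% of all tested genes. The log2 fold change was 1.49 ± 0.30 (limma adjusted p = 0.00403), and the call held in all 19 fits that left out 1 library, with adjusted p between 0.00254 and 0.0238 by limma. At 3 months Nkg7 had 1832, 2898, 986 and 1147 in HEM mice, against 852, 898 and 1166 in WT mice. All 4 HEM libraries lay above the WT median, and the groups overlapped, with a log2 fold change of 0.70 ± 0.37. Between ages it differed by 0.36 ± 0.30 in HEM mice and by -0.42 ± 0.37 in WT mice (limma adjusted p = 0.573 and 0.644).

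Gzma encodes granzyme A, a serine protease abundant in NK cells. It had 422 to 1299 normalized counts in 13-month HEM mice, with a median of 822, against 437, 381, 360 and 117 in 13-month WT mice. All 8 HEM libraries lay above the WT median, and 1 of them below the highest WT library. The log2 fold change was 1.39 ± 0.37 (limma adjusted p = 0.0196), and it was 0.95 without WT replicate 9, the 1 fit of 19 in which the call was lost (adjusted p = 0.109, limma). At 3 months Gzma had 2248, 2507, 1010 and 756 in HEM mice, against 938, 747 and 1094 in WT mice. Here 2 of the 4 HEM libraries lay far above the WT range and the other 2 within it, and the difference was 0.65 ± 0.46.

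Gzma was the 1 gene of the 10 with lower values at 13 than at 3 months in both genotypes at an unadjusted p under 0.05. That is 1 of the 10 in each genotype, against 15.5% of all tested genes in WT mice and 16.6% in HEM mice, so the count is not above the background. In WT mice each 13-month library lay below each 3-month library, a separation that 6.46% of all tested genes showed in that direction, with a log2 fold change of -1.66 ± 0.46 (limma adjusted p = 0.0836). DESeq2 on the recovered reads called it (adjusted p = 0.0201). In HEM mice all 8 libraries at 13 months lay below the 3-month median, and the log2 fold change was -0.92 ± 0.37 (limma adjusted p = 0.213). Of all tested genes 0.709% passed between ages in WT mice and 1.62% in HEM mice (0.934% as higher), and 0 of the 10 members passed in either (limma). In WT mice DESeq2 called 1 of the 10, Gzma, and in HEM mice 0, and edgeR called 0 in both. Of all 23973 tested genes DESeq2 called many more than limma, 1220 in WT mice and 1308 in HEM mice. The summed neutrophil markers were 38048 to 104656 in 13-month WT mice and 74128 to 194045 in 3-month WT mice, and with the neutrophil and erythroid level as a covariate the change of Gzma was -1.03 in WT mice.

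Gzmb encodes granzyme B, which triggers death of the target cell and is made by activated killer cells and also by some mast cells and basophils. It had 370.3 to 4347 normalized counts in 13-month HEM mice, with a median of 1063, against 249, 1313, 528 and 155 in 13-month WT mice. WT replicate 7 stood above 5 of the 8 HEM libraries. The log2 fold change of 1.54 ± 0.56, the largest of the 10, did not pass (limma adjusted p = 0.0814). At 3 months Gzmb had 825, 1595, 894 and 1614 in HEM mice, against 446, 490 and 480 in WT mice. It was the 1 member whose groups did not overlap at 3 months, as 3.08% of all tested genes did with HEM higher and 2.78% with HEM lower, and the log2 fold change was 1.31 ± 0.70 (limma adjusted p = 1.0). Between ages it differed by 0.00 ± 0.56 in HEM mice and by -0.22 ± 0.70 in WT mice.

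Prf1 encodes perforin, the pore-forming protein of the granule. It had 474 to 979 in 13-month HEM mice, with a median of 584, against 246, 547, 314 and 150 in 13-month WT mice. WT replicate 7 alone lay within the range of the HEM libraries. Its log2 fold change of 1.14 ± 0.38 did not pass (limma adjusted p = 0.0571). At 3 months its values spread widely in HEM mice, at 1198, 2047, 601 and 339, against 629, 442 and 475 in WT mice, with a difference of 0.72 ± 0.47.

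Klrd1 encodes CD94, which pairs with NKG2 proteins as a receptor for a non-classical class I molecule on NK cells and some killer T cells. It had 614 to 1617 normalized counts in 13-month HEM mice, with a median of 883, against 234, 593, 477 and 508 in 13-month WT mice. Each HEM library lay above each WT library, as in 2.69% of all tested genes, and the lowest HEM library did so by a small margin. The log2 fold change was 1.13 ± 0.31 (limma adjusted p = 0.0205), and it was 0.84 without WT replicate 6 (adjusted p = 0.0877, limma), the 1 fit of 19 in which the call was lost. At 3 months Klrd1 had 1587, 2236, 929 and 666 in HEM mice, against 723, 573 and 643 in WT mice. All 4 HEM libraries lay above the WT median, and the log2 fold change was 0.92 ± 0.38 (limma unadjusted p = 0.0267, adjusted p = 1.0).

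At 3 months 0 of the 10 genes passed in limma, edgeR or DESeq2, and 1 of the 10, Klrd1, had an unadjusted p under 0.05 in limma. Of all tested genes 0% passed and 3.85% had an unadjusted p under 0.05. All 10 differences were positive, with a median of 0.67 against 0.01 over all tested genes. The difference between the genotype effects at 13 and at 3 months was positive for all 10, at 0.21 for Klrd1 to 0.89 for Cd3d, and 0 of the 10 passed in limma, edgeR or DESeq2, and 0 had an unadjusted p under 0.05 in limma. Of all tested genes 0% passed that test and 14.8% had an unadjusted p under 0.05. The comparisons by genotype and by age share libraries. A larger effect at 13 months than at 3 months was thus not shown for any of the 10, and the 3-month groups hold 4 and 3 mice.

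**Figure D2:**
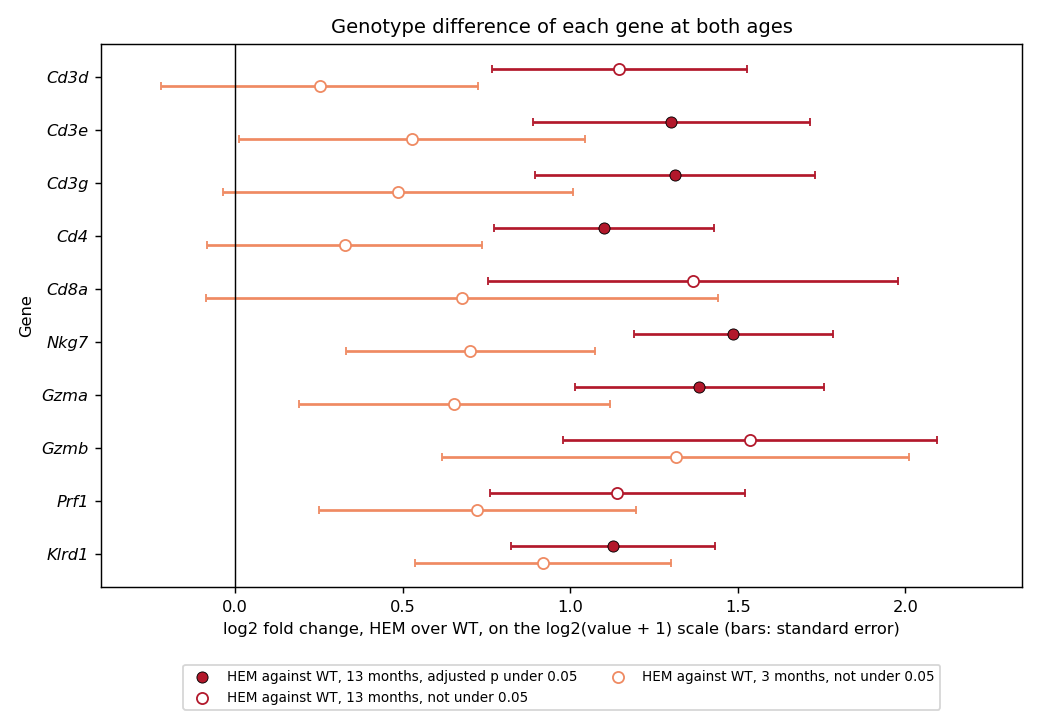
Log2 fold change of HEM over WT for each of the 10 genes on the log2(value + 1) scale, with bars of 1 standard error, at 13 months (dark red) and 3 months (orange). Filled points passed an adjusted p of 0.05 in limma, all of them at 13 months, and each of the 20 differences is positive.

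Per kilobase of exon, Nkg7 was the most abundant of the 10 transcripts, with a mean of 1714 normalized counts per kilobase over all libraries. It stood above the next, Gzma at 890.4, in 18 of 19 libraries. Gzma, Gzmb at 771, Cd8a at 716 and Klrd1 at 698 formed a middle range in which neighbours exchanged places between libraries, since Gzma exceeded Gzmb in 13, Gzmb exceeded Cd8a in 12 and Cd8a exceeded Klrd1 in 7 of 19. Prf1 at 247 and Cd4 at 158 were the lowest, and Cd3e exceeded Prf1 in 10 of 19 libraries. The order was not the same at both ages. Gzma ranked second in both 3-month groups, at 1621 ± 870.1 per kilobase in HEM mice and 921 ± 173 in WT mice (SD, n = 4 and 3). In the 13-month groups it ranked behind Nkg7, Cd8a and Gzmb in HEM mice at 798 ± 283 and behind those and Klrd1 in WT mice at 322 ± 141 (SD, n = 8 and 4), and Cd8a ranked second in both.

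The ratio of Gzma to Cd3e per kilobase had a median of 2.58 in 13-month HEM mice and 1.95 in 13-month WT mice, against 6.74 in 3-month HEM mice and 7.76 in 3-month WT mice. The ranges overlapped in part, at 1.06 to 4.34 and 1.16 to 5.27 at 13 months and 4.03 to 17.6 and 4.29 to 9.90 at 3 months, each pair given as HEM and then WT. Gzma was the member least like the others over the 19 libraries, with Pearson's r of 0.652 to the mean of the 10 genes, and its lowest r to another member was 0.202, with Cd8a. Nkg7 was the most like the mean (r = 0.952). These correlations share libraries and groups, and each gene is itself a part of the mean.

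Single libraries set much of the spread. Among 13-month HEM mice replicate 3 was highest for 7 of the 10 genes, and its summed level of the 10, 35814 normalized counts, compares with 8148 to 18663 in the other 7. Among 13-month WT mice replicate 7 was highest for 9 of the 10, with a sum of 11840 against 3603 to 5460.0 in the other 3. Among 3-month HEM mice replicate 3 was highest for 9, with 20183 against 7489 to 10820.4, and among 3-month WT mice replicate 3 was lowest for 8. The sums of the 13-month groups overlapped through WT replicate 7, which lay above 3 of the 8 HEM libraries.

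The genes whose level followed that of the 10 most closely over the 19 libraries were also mostly genes of T and NK cells. By Pearson's r with the mean standardized level of the 10, those most alike included Gimap4 (0.970), Lck (0.967), Ccl5 (0.962), Trbc2 (0.960), Ctsw (0.955), Ms4a4b (0.954), Sh2d2a (0.952), Sept1 (0.944) and Fasl (0.944). Lck is a kinase of T cell receptor signalling, Trbc2 is a constant gene of the receptor's beta chain, Ccl5 is a chemokine of activated T and NK cells, and Fasl is a death ligand.

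A further 87 genes of T and NK cells were followed in 7 lists, of which 84 were tested. Gzmd, Gzme and Gzmg were not tested, and Gzmg was at 0 in all 19 libraries. At 13 months 32 were higher and 1 was lower in HEM than in WT mice (limma), with a median log2 fold change of 1.15. Of all tested genes 4.87% were higher and 7.3% lower, with a median of 0.03. At 3 months 0 passed in limma, edgeR or DESeq2, 13 had an unadjusted p under 0.05 in limma, and the median was 0.62. Of all tested genes 3.85% had an unadjusted p under 0.05 at 3 months, with a median of 0.01. The count of 33 was 13 without 13-month WT replicate 9, 17 without 13-month WT replicate 6, and 0 with the neutrophil and erythroid level as a covariate.

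NK cell receptors made up the list with the largest number of called genes at 13 months, 10 of 17. Slamf7, an activating receptor of NK cells, averaged 866 ± 272 normalized counts in HEM mice and 317 ± 121 in WT mice (SD, n = 8 and 4), a log2 fold change of 1.49 (limma adjusted p = 0.00303). Klrb1f changed by 1.39 and Cd226, an activating adhesion receptor, by 1.79 (adjusted p = 0.00311 and 0.00576, limma). In each of these 3 genes every HEM library lay above every WT library, as in 2.69% of all tested genes. The 3 were named for their small p, so this separation is no further support. Receptor signalling followed with 7 of 14, among them the adaptors Sh2d1a (1.35), Sh2d2a (1.37) and Sit1 (1.44). The exons of Sh2d1a overlap those of Tenm1 on the other strand over 26.6% of their bases, and the strand setting of the counting is not given.

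Of the T cell surface genes 5 of 14 rose at 13 months. The inhibitory receptor Ctla4 had the largest change among all 84, with 178 ± 110.3 normalized counts in HEM mice and 29.5 ± 12.5 in WT mice (SD, n = 8 and 4), a log2 fold change of 2.44 ± 0.44 (limma adjusted p = 0.00265). Cd69, an early activation marker, averaged 1077 ± 317 in HEM mice and 337 ± 86.1 in WT mice and changed by 1.66 (adjusted p = 0.00278, limma). Every HEM library lay above every WT library in both genes, which were likewise named for their small p, as in 2.69% of all tested genes.

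Of the cytokine and chemokine genes 4 of 12 rose. Il18rap, a subunit of the receptor for interleukin 18, averaged 2063 ± 338 in HEM mice and 762 ± 143 in WT mice (SD, n = 8 and 4), and its change of 1.44 ± 0.22 had the smallest p of the 84 (limma adjusted p = 0.00176). Ifng, the cytokine interferon gamma, averaged 244 ± 165 in HEM mice and 71.5 ± 25.5 in WT mice, a change of 1.62 (limma adjusted p = 0.0103). Il2rb, a receptor chain for interleukins 2 and 15, changed by 1.10. Of the transcription factors 3 of 11 rose, which were Runx3 (1.17), Tbx21 (1.38) and Bcl11b (1.18), regulators of the killer, type 1 and T cell programmes. Of the other receptor chains 2 of 8 rose, the gamma chain gene Tcrg-C1 (1.43) and the zeta chain gene Cd247 (1.29), whose exons overlap those of Pou2f1 on the other strand over 56.4% of their bases. Constant genes of the gamma chain are similar in sequence, so reads may be divided among them.

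Of the other cytotoxic genes 1 was higher and 1 lower of 8 tested, with a median of 0.97. Fasl rose by 1.60 (limma adjusted p = 0.0146). Gzmm, a granzyme of NK cells, was lower in HEM mice at 13 months, at 257 to 433 normalized counts with a mean of 332 ± 76.2, against 446 to 701 with a mean of 582 ± 124 in WT mice (SD, n = 8 and 4). Every HEM library lay below every WT library, as in 3.98% of all tested genes, and the log2 fold change was -0.82 ± 0.19 (limma adjusted p = 0.00903). At 3 months its order was the opposite, with 370.2 ± 75.5 in HEM mice and 240 ± 18.0 in WT mice (SD, n = 4 and 3). There every HEM library lay above every WT library, as in 3.08% of all tested genes (log2 fold change 0.60 ± 0.24, limma adjusted p = 1.0). In WT mice Gzmm was higher at 13 than at 3 months by 1.25 ± 0.24 (limma adjusted p = 0.0252), with every 13-month library above every 3-month one, as in 8.83% of all tested genes. It was the 1 T and NK cell gene of the 84 that passed between ages in WT mice. That call was lost without 13-month WT replicate 7 or 9 and without any 1 of the 3-month WT libraries. The difference between the genotype effects at the 2 ages was -1.42 ± 0.30 for Gzmm (limma adjusted p = 0.0781). Between ages in HEM mice 0 of the 84 passed (limma) and 11 had an unadjusted p under 0.05, against 16.6% of all tested genes, and edgeR called 0 and DESeq2 3.

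**Figure D3:**
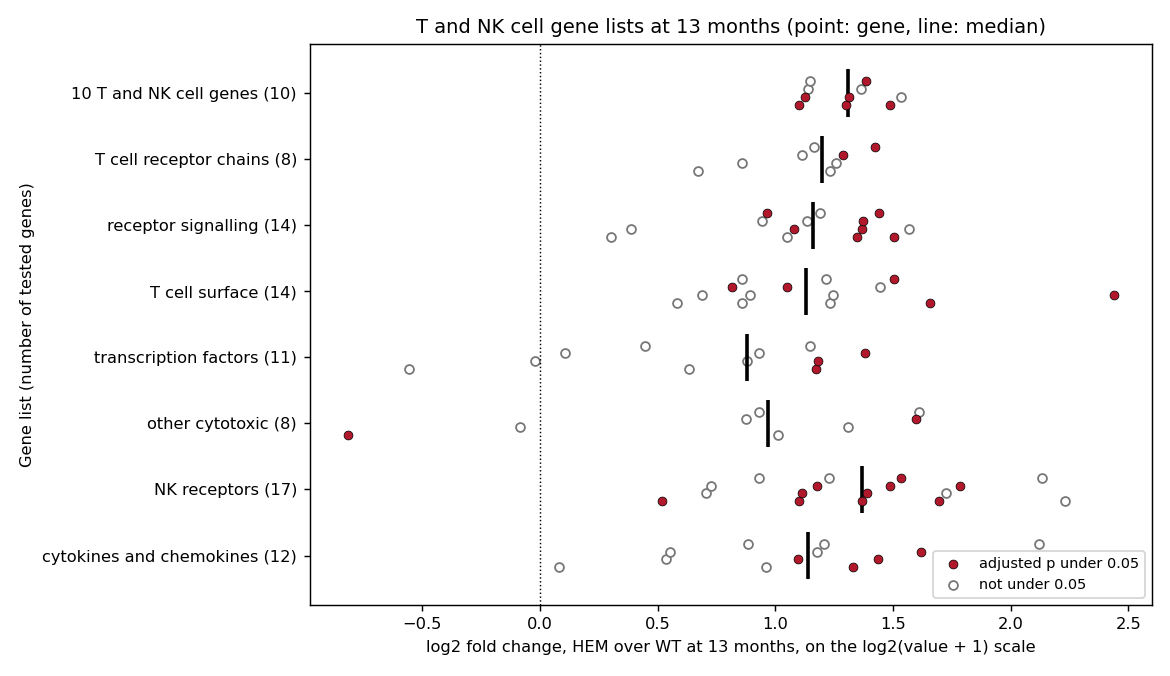
Log2 fold change of HEM over WT at 13 months on the log2(value + 1) scale for the 10 genes and for 7 lists of other T and NK cell genes, with each point 1 gene, each bar the list's median and filled points an adjusted p under 0.05 in limma. The medians lie between 0.88 and 1.37, against 0.03 over all tested genes, and Gzmm is the 1 filled point below 0.

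Like the 10 genes, most markers of other blood cells had positive differences between HEM and WT mice at 13 months. All 12 neutrophil markers rose in HEM mice (limma), with a median log2 fold change of 2.14, and their summed level was 64907 to 565195 normalized counts in HEM mice, with a median of 345749, against 38048 to 104656 with a median of 57731 in WT mice. Monocyte markers rose in 5 of 6, eosinophil markers in 4 of 5 and erythroid markers in 3 of 8. Outside the blood cell markers, 9 of 10 cell cycle genes and 9 of 10 immediate early genes rose. Here rose means passed as higher in HEM than in WT mice, as 4.87% of all tested genes did. From 3 to 13 months the median log2 change of immediate early genes was -0.24 in HEM mice and -2.18 in WT mice. It was 0.16 and -1.17 for erythroid markers and 1.64 and -1.15 for neutrophil markers. Dendritic cell markers rose in 3 of 9, with sums of 5834 to 8516 in HEM mice and 4589 to 5874 in WT mice. Their log2 fold changes ran over -0.04 to 1.29 with a median of 0.69. The largest was that of Xcr1, a low gene (mean 80.7 normalized counts) of the lineage that carries Cd8a. Basophil and mast cell markers rose in 1 of 9 with a median of 1.37 and sums of 2432 to 8649 in HEM mice and 353 to 3855 in WT mice. B cell markers rose in 1 of 9, with a median of 0.47. All 9 basophil and mast cell markers and all 8 erythroid markers had an unadjusted p under 0.05, with positive differences (limma). The same held for 4 of 9 dendritic and 2 of 9 B cell markers at that unadjusted p, against 24.9% of all tested genes. Microglia markers rose or fell in 0 of 10, with 0 at an unadjusted p under 0.05 and a median of -0.21. Platelet markers rose in 3 of 5 and plasma cell markers in 2 of 5, while 0 of 7 early lymphoid, 0 of 8 neuron and 0 of 6 endothelial markers passed, with 3, 0 and 0 at an unadjusted p under 0.05 (limma). Of the most abundant marker in each list, S100a9 of neutrophils changed by 1.86, Prg2 of eosinophils by 4.37, Chil3 of monocytes by 2.77, Itga2b of platelets by 1.38, Mki67 of cycling cells by 2.12 and the immediate early gene Junb by 1.61, and all 6 passed. Hba-a1 of erythroid cells (1.04), Prss34 of basophils (2.23), Ighm of B cells (0.43), Ebf1 (0.60), Xbp1 (0.11), Zbtb46 (0.19), Snap25 (0.37), Flt1 (0.33) and Csf1r of microglia (-0.26) did not pass. None of these markers was at 0 in every library.

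The order of the libraries by the 10 genes matched that by the neutrophil markers in part. Among 13-month HEM mice replicate 3 had the highest sum of the 10 T and NK cell genes and the lowest sum of the neutrophil markers, 64907. Among 13-month WT mice replicate 6 had the highest neutrophil sum, 104656, and the second lowest sum of the 10 genes, 3612, while replicates 7, 8 and 9 kept the same order in both sums. Among 3-month HEM mice replicates 1 and 3 had the 2 highest values of both sums. At 3 months the 12 neutrophil markers all had negative differences, with a median of -0.65, while the 10 genes all had positive ones. The 8 neuron markers also all had positive differences at 3 months, with a median of 1.16 against 0.67 for the 10 genes, and 0 of the 8 passed, with 1 at an unadjusted p under 0.05 (limma). With the neutrophil and erythroid level as a covariate the 13-month log2 fold changes of Cd3d, Cd3e and Cd3g were 1.64, 1.78 and 1.80, Cd4 had 1.36, Cd8a 2.19 and Nkg7 1.18, while Gzma had 0.42 and Prf1 0.32. The standard errors were larger with the covariate, 0.47 for Nkg7 and 0.94 for Cd8a.

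**Figure D4:**
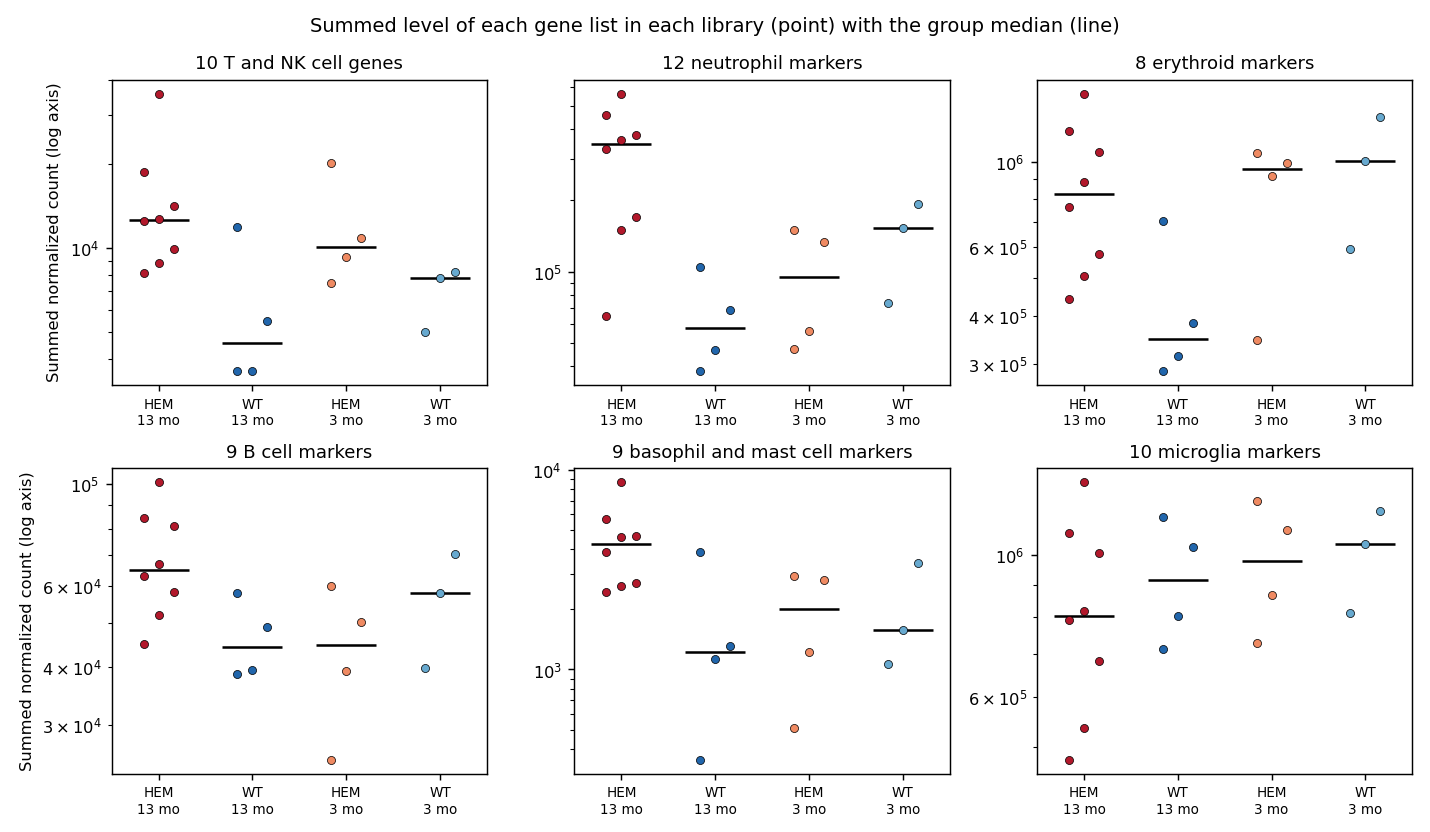
Summed normalized counts (log axis) of the 10 T and NK cell genes and of the markers of 5 other cell types, with each point 1 library and each line a group median, for HEM and WT mice at 13 months and HEM and WT mice at 3 months. Neutrophil sums reach 565195 in 13-month HEM mice and 104656 in 13-month WT mice, while microglia sums overlap in all groups.

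Choroid plexus markers, which come from a tissue that hosts T cells, were lower in HEM mice at 13 months in 5 of 5, among them Ttr by a log2 change of -0.93, with sums of 1303906 to 2514607 in HEM mice and 3252644 to 3892872 in WT mice. At 3 months they differed by a median of 0.17 and 0 of 5 passed, with 0 at an unadjusted p under 0.05 (limma). Thy1, which T cells share with neurons and whose promoter drives the transgene, had 5205 to 37356 normalized counts in 13-month HEM mice and 2362 to 7909 in 13-month WT mice, and its log2 fold change of 1.204 ± 0.49 did not pass (limma adjusted p = 0.127). At 3 months Thy1 had 21865, 51370, 18692 and 18307 in HEM mice, against 8035, 10886 and 3367 in WT mice. These groups did not overlap, as in 3.08% of all tested genes with HEM higher. The log2 fold change was 1.90 ± 0.62 (limma unadjusted p = 0.0061, adjusted p = 1.0). Its 13-month value was highest in HEM replicate 3 and in WT replicate 7, the same libraries that stood highest for most of the 10 genes. The neuron markers were also highest in 13-month WT replicate 7 and 3-month HEM replicate 3, and second highest in 13-month HEM replicate 3. The part of these tissues in the values of the 10 genes was not tested.

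Klrd1 lies in the NK gene complex, and 2 libraries stood apart there, which was noticed after the values were seen. In 13-month WT replicate 6 and 3-month HEM replicate 7, Klrb1b had 14.0 and 8.12 normalized counts, given in that order, against 138 to 1389 in the other 17 libraries. Klra8 had 3.50 and 0, against 50.6 to 634, and Klra9 had 2.80 and 9.14, against 59.1 to 381. Of 16901 genes with at least 20 normalized counts in each of the other 17 libraries, 4 were more than 5 times below the lowest of those in both, namely these 3 and the pseudogene Klra13-ps, and all 4 lie on chromosome 6 within 1.49 Mb at chr6:128813706-130306428. Klrd1 lies within that interval and was detected in both, at 234 and 666 normalized counts, each the lowest Klrd1 value of its group. The other libraries of these groups held 477 to 593 in 13-month WT mice and 929 to 2236 in 3-month HEM mice. The part of this region in the Klrd1 differences was not tested. Genes of this family are similar in sequence, so reads may be divided between them. Whether these 2 animals have the same genetic background as the others in this region was not tested. Without the 2 libraries, 2 of the 10 genes, Nkg7 and Gzma, passed at 13 months, and the median of the 10 was 1.08. NK cell receptors then passed in 9 of 17 with a median of 1.04.

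**Figure D5:**
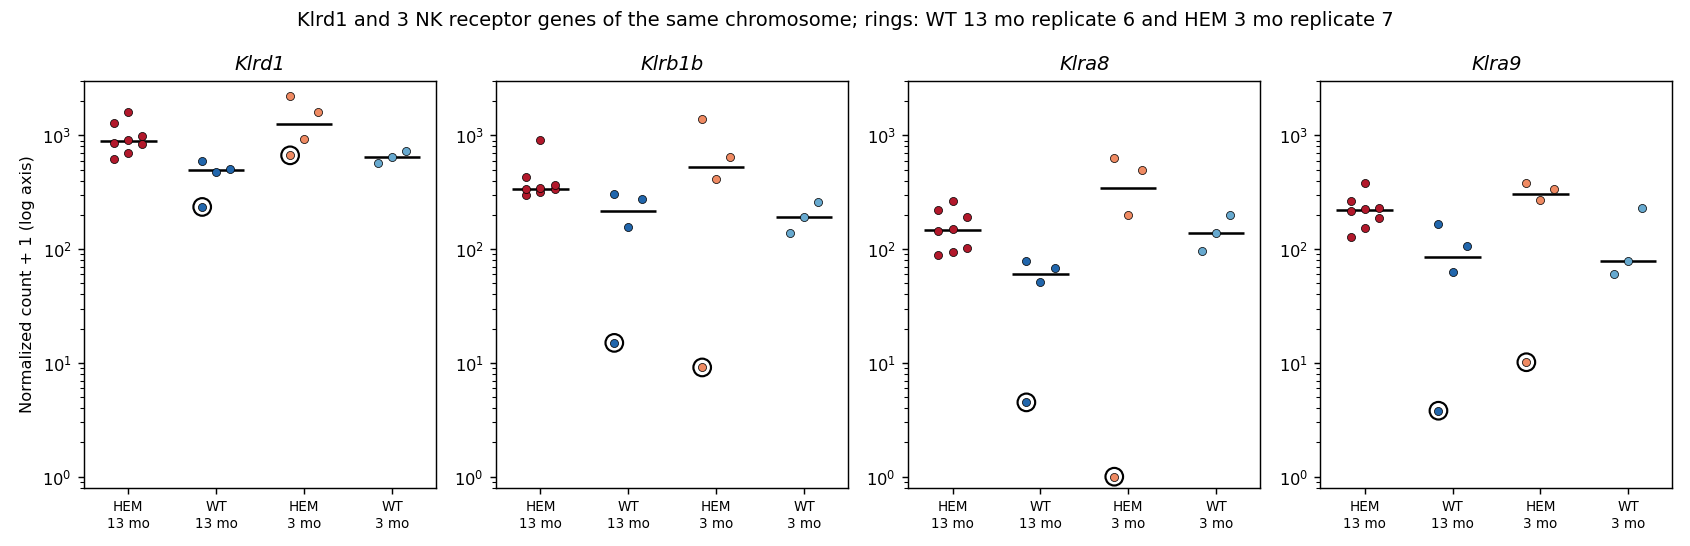
Normalized counts plus 1 (log axis) of Klrd1 and of 3 further NK receptor genes on the same chromosome, with each point 1 library and each line a group median. Rings mark 13-month WT replicate 6 and 3-month HEM replicate 7. They fall to between 0 and 14.0 normalized counts for Klrb1b, Klra8 and Klra9. For Klrd1 they hold 234 and 666, the lowest values of their groups.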

How the data were processed

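RNA of microglia-enriched homogenate from 19 mice was sequenced after NEBNext Ultra II library preparation, per the labels' protocols. Trimmomatic, HISAT2, featureCounts and DESeq2 and the build mm10 are named in the submitters' processing notes. The annotation and the strand setting of the counting are not given in the sources used here. The deposited values are a signal per gene and library, which the authors made from gene counts by dividing by 1 size factor per library. Of all deposited values 100% came out as whole reads within a tolerance of 0.01. Gene symbols, positions and exon lengths came from GENCODE M21, which matched 99.5% of the identifiers, and promoter sequences from RefSeq (GRCm38.p6).

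Values were tested as log2(value + 1) with limma 3.58.1 (robust, intensity trend) in R 4.3.3. All 4 groups entered 1 fit with 15 residual degrees of freedom, on the 23973 genes with 10 or more in 3 or more libraries. P-values were adjusted by Benjamini-Hochberg over all tested genes, and an adjusted p under 0.05 counted as passed. Adding 1 before the logarithm makes the fold changes of low genes too small. The recovered reads were tested with edgeR 4.0.16 (quasi-likelihood) and DESeq2 1.42.0, and at 13 months edgeR with TMM factors called 2898 genes, against 2918 by limma. The fit was checked on simulated data. The other alternatives were pseudocounts of 0.5 and 10, filters, TMM scaling, a neutrophil and erythroid covariate, a replicate block, and leaving out libraries.

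Besides the 10 genes and Thy1, the text names up to 3 called genes of each of the 7 other T and NK cell lists by smallest p at 13 months, and the 10 genes most like the members' mean among tested genes with a mean of at least 50. Of each list of other cells the rule also takes the most abundant marker and any marker at 0 in all libraries. Some genes that the rule takes are not reported here. Xcr1, the microglia genes and the NK receptor genes of 2 libraries were named outside this rule. The members and lists were chosen with earlier results of these data known.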

Additional observations from a re-analysis of the deposited data

Results flagged for a closer look

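In 30 groups of values examined (10 genes in 3 groups of 4 or 8 libraries), 5 held a library far from its group by Dixon's test. The test was run on normalized counts without a logarithm, unlike the other tests. Its nominal rate of about 1 group in 20 holds for normally distributed and independent values. The genes share libraries and the CD3 genes varied alike, so the count of 5 cannot be set against that rate. All 5 flags came from 2 libraries. In 13-month HEM replicate 3, Cd3d had 2107 normalized counts, Cd3e 3237, Cd3g 4180 and Cd8a 14111, each the highest of its 8 libraries. In 13-month WT replicate 7, Cd3d had 769, against 291 to 350 in the other 3. With HEM replicate 3 left out 3 of the 10 genes passed at 13 months, and with WT replicate 7 left out 8 passed, against 6 with all libraries (limma).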

How the results depend on the processing

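With 1 library left out, 2 to 8 of the 10 genes (6 with all) and 13 to 41 of the other T and NK cell genes (33 with all) passed at 13 months. Over all genes 1707 (without 13-month WT replicate 9) to 3287 passed, against 2918. Other T and NK cell genes passed in 0 to 2 between ages in HEM mice (0 with all), 0 to 1 in WT mice (1 with all) and 0 to 1 for the difference of effects (0 with all). With the neutrophil and erythroid covariate 0 of the 10, 0 of the other T and NK cell genes and 0 of all genes passed at 13 months (2313 of all at an unadjusted p under 0.05), and 0 of the other genes between ages in WT mice, as with only the groups compared (0). DESeq2 called 3 of the other genes between ages in HEM mice, 1 member and 5 others in WT mice, and 2 others for the difference. Over all genes it called 6 at 3 months, 1308 between ages in HEM mice, 1220 in WT mice and 947 for the difference, against 0, 388, 170 and 0 by limma. A filter at 50 and leaving out 3 libraries (13-month HEM replicates 1 and 11, 3-month HEM replicate 3) each gave 1 other gene between ages in HEM mice. Leaving out the 2 libraries low in NK receptor genes, chosen after seeing the data, gave 2 of 10 at 13 months and 1 of 10 between ages in WT mice. The cause of these shifts was not tested. At 13 months all 10 differences stayed positive except under the block.

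Signs turned mainly where log2 changes were small. Between ages in WT mice the count tests gave Cd3e 0.037, 0.041 and 0.041 and Gzmb 0.25, 0.25 and 0.25 (edgeR TMM, edgeR RLE, DESeq2). With the covariate Cd4 was 0.15 and Gzmb -0.081 between ages in HEM mice, Cd8a -0.12 in WT mice, and the difference of effects -0.53 for Gzma and -0.65 for Prf1. Without the 3 libraries Cd3d at 3 months was -0.11 and Cd4 between ages in HEM mice 0.30. Without the 2 libraries low in NK receptor genes Cd4 was 0.071 in HEM mice, Cd3e 0.21 and Gzmb 0.012 in WT mice, and the difference -0.083 for Prf1 and -0.37 for Klrd1. With 1 library left out, Cd3d at 3 months ran over -0.12 to 0.57. Between ages in HEM mice Cd4 ran over -0.30 to 0.27 and Gzmb over -0.27 to 0.24. In WT mice Cd3d ran over -0.66 to 0.028, Cd3e -0.41 to 0.35, Cd8a -0.18 to 0.86 and Gzmb -0.79 to 0.24. The difference ran over -0.24 to 0.79 for Gzmb, -0.018 to 0.85 for Prf1 and -0.080 to 0.50 for Klrd1.

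Deviations of same-numbered animals correlated at 0.107 and 0.126 at 13 months, 0.021 and -0.038 at 3 months and -0.068 to 0.173 between ages in HEM mice. No label says whether equal numbers pair animals. These correlations were not compared with those of unequal numbers, so they cannot decide it, and the main fit used no pairing. A replicate block left 5 residual degrees of freedom, and 0 of the 10, 0 of the other T and NK cell genes and 0 of all genes passed at 13 months (2717 of all at an unadjusted p under 0.05), and 0 of the other genes between ages in WT mice. Under the replicate block Cd8a was -0.44 and Gzmb -0.18 at 13 months, and Cd4 0.19 between ages in HEM mice. In WT mice it gave Cd3d 0.95, Cd3e 1.44, Cd3g 1.29, Nkg7 1.003, Gzmb 1.99, Prf1 0.85 and Klrd1 1.04. The difference under the block was -0.067 for Cd3d, -0.41 for Cd3e, -0.48 for Cd3g, -1.94 for Cd8a, -0.53 for Nkg7, -0.70 for Gzma, -1.92 for Gzmb, -1.21 for Prf1 and -1.22 for Klrd1.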

Other observations

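The killer-cell receptor Klra4 was at 0 in 1 library of 13-month WT mice and 1 of 3-month HEM mice. Tcrg-C2, a constant gene of the T cell receptor's gamma chain, averaged 412 ± 145 normalized counts in 13-month HEM mice and 141 ± 68.4 in 3-month HEM mice (SD, n = 8 and 4), a log2 change of 1.62 ± 0.41 that missed the threshold (limma adjusted p = 0.0539). Every 13-month HEM library lay above every 3-month one, as in 1.44% of all tested genes. In WT mice it averaged 200.3 ± 162 at 13 months and 74.6 ± 22.5 at 3 months (SD, n = 4 and 3). The other gamma and delta chain genes of the list differed little between ages in HEM mice, by 0.04 for Tcrg-C1, 0.15 for Tcrg-C4 and 0.06 for Trdc on the log2 scale, and none of these 3 passed (limma).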
